A study of Mus musculus with 5 samples.

Results

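ICOS and the CD28 receptor family were followed in group 2 innate lymphoid cells (ILC2s) of the mouse lung, with and without IL-33. The 6 genes, chosen by name with earlier results of these data known, were Icos, Cd28, Ctla4, Pdcd1, Btla and the ICOS ligand gene Icosl. Each had 1 probe set paired with its symbol alone, so 6 genes of the 22180 with such a probe set are described. Of 5 arrays, 2 held RNA of ILC2s from IL-33 knockout mice and 3 held RNA of wild-type ILC2s. According to the labels all mice were naive adult males, the cells came from the lung, and each array was a separate biological replicate. The knockout allele, the strain, the age in weeks, the sorting gate and any pooling of mice are not given in the sources used here. Total RNA was biotin-labelled and hybridised to Affymetrix arrays, and signals are given throughout on the log2 scale.

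Receptors of the CD28 family sit on lymphocytes and bind ligands of the B7 family on neighbouring cells. CD28 and ICOS recruit phosphoinositide 3-kinase and promote survival and cytokine output, whereas CTLA-4, PD-1 and BTLA restrain activation. In mouse lung, ILC2s carry both ICOS and its ligand, and this pairing is known to aid their survival and cytokine production. PD-1 is known as a brake on ILC2s, and IL-33 is an alarmin that activates them.

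The label of the cells was checked against marker genes. All 13 ILC2 markers measured, among them Gata3, Rora, Il7r, Klrg1 and Nmur1, lay above the median probe set on every array. Of 9 T cell markers measured, Cd4, Cd8a, Cd8b1 and Cd5 lay below that median on all 5 arrays, and the other 5, Cd3d, Cd3e, Cd3g, Bcl11b and Themis, lay above it on all 5. So did 6 of 10 lung epithelial, 5 of 8 endothelial, 2 of 4 regulatory T cell and 3 of 7 NK cell and ILC1 markers. The counts were 3 of 13 for macrophage and dendritic cell markers and 1 of 6 for B cell markers. A signal above the median therefore does not by itself identify a cell type. Cd3g was at 9.10 and 9.51 in knockout arrays and at 9.43 to 9.74 in wild-type arrays. Il33, whose removed part and probe positions are not given in the sources used here, read 3.79 and 3.95 in knockout arrays and 3.32 to 3.39 in wild-type arrays, so it does not check the genotype. Xist, a transcript of the inactive X chromosome, read 7.91 on knockout replicate 2, against 3.10 on knockout replicate 1 and 2.35 to 3.10 in wild-type arrays. That array goes against its male label, and the differences of the family members with a contrast, and of pathway and neighbouring genes that it moved by over 1.5 times, are also given without it. Pearson's r across probe sets was 0.893 between the knockout arrays, 0.894 to 0.918 between knockout and wild-type arrays and 0.929 to 0.933 between wild-type arrays.

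Icos was the member with the widest gap between genotypes. This gene encodes the inducible costimulator. It read 8.28 and 8.55 in the knockout arrays, against 7.07, 7.08 and 7.28 in the wild-type arrays. The groups did not overlap, with 1.00 between the lowest knockout and the highest wild-type value. The spread within a genotype was smaller, at 0.26 between the knockout arrays and 0.21 over the wild-type arrays. Means were 8.41 ± 0.19 (SD, n = 2) in knockout and 7.14 ± 0.12 (SD, n = 3) in wild type. The difference, knockout minus wild type, was 1.27 with a limma standard error of 0.12, which is 2.41-fold. It was 1.14 without knockout replicate 2 and 1.40 without knockout replicate 1. Among the probe sets of its own array, Icos stood at percentile 95.6 and 96.8 in the knockout arrays and at 90.0 to 90.8 in the wild-type arrays. Of 16635 genes tested, its difference ranked 49 from the top. Since Icos was chosen with this contrast known, these values are a description and carry no test. In RNA from whole cell populations, a larger share of cells with a transcript and more transcript per cell cannot be told apart.

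Cd28, the founding receptor of the family, had a low signal. It read 4.82 and 4.16 in the knockout arrays, against 3.83, 3.42 and 3.88 in the wild-type arrays. The groups did not overlap, but only 0.28 separated the lower knockout array from the highest wild-type array. Cd28 lay below the median probe set on 4 of the 5 arrays, knockout replicate 1 being the exception. Its means were 4.49 ± 0.47 (SD, n = 2) in knockout and 3.71 ± 0.25 (SD, n = 3) in wild type, a difference of 0.78 (SE 0.28). Most of this came from knockout replicate 1, where Cd28 was 1.11 above the wild-type mean, against 0.45 in knockout replicate 2. The order was the other way round for Icos, at 1.14 in replicate 1 and 1.40 in replicate 2.

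Ctla4, the inhibitory receptor that competes with CD28 for CD80 and CD86, gave no contrast. The deposited value was 3.07 on all 5 arrays and lay below the lower quartile of probe sets on each. A value equal over all arrays holds no information on a difference. Ctla4 was among the dimmest 25% of genes and was not tested, which left 5 of the 6 members among the genes tested. Equal values were common in these files: 13.1% of the genes tested had the same value on at least 4 arrays.

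Pdcd1, which encodes the inhibitory receptor PD-1, was the member with lower signals in knockout arrays. It read 6.36 and 5.92 there, against 6.72, 6.51 and 6.51 in the wild-type arrays. The groups did not overlap, and 0.16 lay between the higher knockout array and the lowest wild-type arrays. Means were 6.14 ± 0.31 (SD, n = 2) in knockout and 6.58 ± 0.12 (SD, n = 3) in wild type, a difference of -0.45 (SE 0.17). Knockout replicate 2 carried more of it, at -0.66 from the wild-type mean, and without that array the difference was -0.23. Pdcd1 lay above the upper quartile of probe sets on all 5 arrays.

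Btla encodes a further inhibitory receptor, whose ligand HVEM is the product of Tnfrsf14. Its value was 4.49 on both knockout arrays, against 4.37, 4.49 and 4.49 on the wild-type arrays. These 4 equal values were identical in the deposited file, and the difference of 0.04 (SE 0.06) came from wild-type replicate 1 alone.

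Icosl encodes the ligand of ICOS and overlapped between genotypes. It read 6.82 and 6.44 in the knockout arrays, against 6.44, 6.63 and 7.05 in the wild-type arrays. The knockout values lay within the wild-type range. Means were 6.63 ± 0.27 (SD, n = 2) in knockout and 6.70 ± 0.31 (SD, n = 3) in wild type, a difference of -0.08 (SE 0.24). The sign turned between the knockout arrays, with 0.11 in replicate 1 and -0.26 in replicate 2. The receptor gene and its ligand gene therefore had unlike values in the same RNA: on each knockout array Icos stood at least 1.14 above its wild-type mean, while Icosl stayed within 0.35 of its own on every array.

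**Figure D1:**
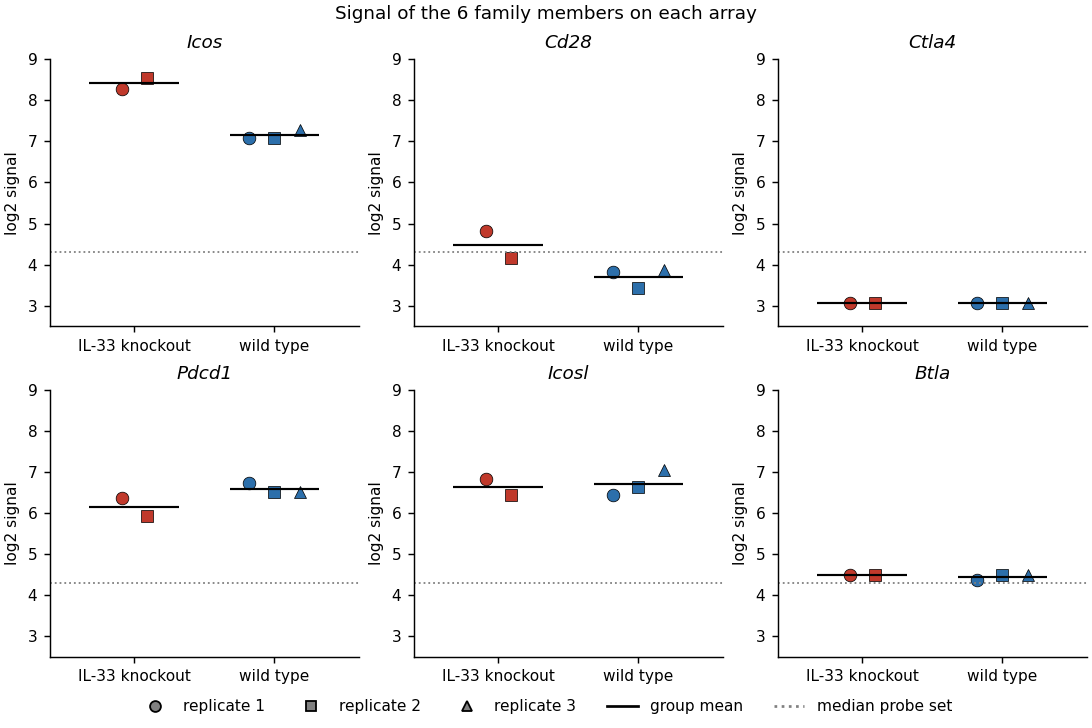
Log2 signal (vertical axis) of the 6 family genes on the 2 IL-33 knockout arrays (left in each panel) and the 3 wild-type arrays (right), with group means as horizontal bars and the median probe set as a dotted line. Icos is at 8.28 and 8.55 in knockout and at 7.07 to 7.28 in wild type, Cd28 and Pdcd1 show narrower gaps, and Ctla4 is at 3.07 on every array.

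Promoter sequence is shown for 2 members, Pdcd1, the receptor gene with lower signals in both knockout arrays, and Icosl, the ligand gene whose signals overlapped. Both are the 250 bases before the transcription start, written 5′ to 3′ on the strand of the gene, from RefSeq on GRCm38.p6. The Pdcd1 stretch is chr1:94052554-94052803 on the minus strand, and the Icosl stretch is chr10:78069118-78069367 on the plus strand. Capitals mark matches of the NFAT core GGAAA and of the NF-kB consensus, searched on both strands.
Pdcd1: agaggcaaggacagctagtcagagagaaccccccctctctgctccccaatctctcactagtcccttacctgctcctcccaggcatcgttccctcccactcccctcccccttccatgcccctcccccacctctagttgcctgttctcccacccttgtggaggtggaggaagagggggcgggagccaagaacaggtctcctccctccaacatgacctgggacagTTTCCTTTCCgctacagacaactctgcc
Icosl: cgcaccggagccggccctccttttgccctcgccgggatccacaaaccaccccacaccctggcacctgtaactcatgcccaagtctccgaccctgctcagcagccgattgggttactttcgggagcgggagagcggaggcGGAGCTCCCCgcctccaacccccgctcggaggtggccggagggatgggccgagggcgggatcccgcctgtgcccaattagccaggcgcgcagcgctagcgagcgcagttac

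In Pdcd1, 2 NFAT cores stood side by side on the reverse strand, close to the start. An NFAT core was present in 55.6% of 32851 promoters of the same length, so its presence does not set Pdcd1 apart. Icosl held 1 NF-kB match, also on the reverse strand, and 7.25% of promoters held one. Neither stretch matched the AP-1 site TGANTCA, the GATA site GATAA or the cyclic AMP element TGACGTCA, which 6.75%, 22.6% and 1.55% of promoters held. The GC content was 60.4% for Pdcd1 and 68.8% for Icosl. A match of letters is a description and shows no binding.

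Over the family, 2 members, Icos and Cd28, were higher and 1, Pdcd1, was lower in knockout arrays without overlap, and 3 had overlapping groups. Over all genes tested, 11.6% were higher and 6.32% lower without overlap. Because the members were chosen with this contrast known, nothing is read from their count. With limma across all genes, 0 of 16635 (0%) passed the Benjamini-Hochberg threshold of 0.05, and 0.327 was the lowest adjusted p of any gene. Unadjusted, 1271 genes (7.64%) had a limma p below 0.05, with 840 higher (5.05%) and 431 lower (2.59%). The fit with a trended, robust variance also called 0 genes. The split of non-overlapping genes depended on scaling: 64.8% of them were higher as deposited, 40.7% after quantile normalization and 25.8% after median centring. Of the genes tested, 36.4% had 5 distinct values, and a constant that moves each array can part groups with tied values. How much of the shift comes from such ties was not tested. After median centring Ctla4 counted as lower too. Its deposited value was equal on all 5 arrays, so that count reflects only the constant by which centring moved each array.

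Cd28, Ctla4 and Icos lie next to each other on mouse chromosome 1, a cluster that arose by duplication. In the gene order of RefSeq for GRCm38.p6 these 3 are consecutive protein-coding genes, preceded by Raph1 and followed by Pard3b. The neighbours were named after their values were seen. Raph1, a regulator of cell protrusions, read 5.14 and 4.44 in knockout arrays, against 4.90, 4.51 and 5.15 in wild-type arrays, with overlap, and its difference was -0.07, or 0.28 without knockout replicate 2. Pard3b, a cell polarity gene, read 6.01 and 5.53 in knockout arrays, against 5.11, 4.85 and 5.51 in wild-type arrays. The gap of Pard3b was 0.02, its difference was 0.62 (SE 0.27), and limma's adjusted p was 0.623. These values are of its brightest probe set, and with the mean of its probe sets the difference was 0.37. Farther out, Abi2 differed by -0.32, or -0.13 without knockout replicate 2, and Nrp2 by -0.034, both with overlap.

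**Figure D2:**
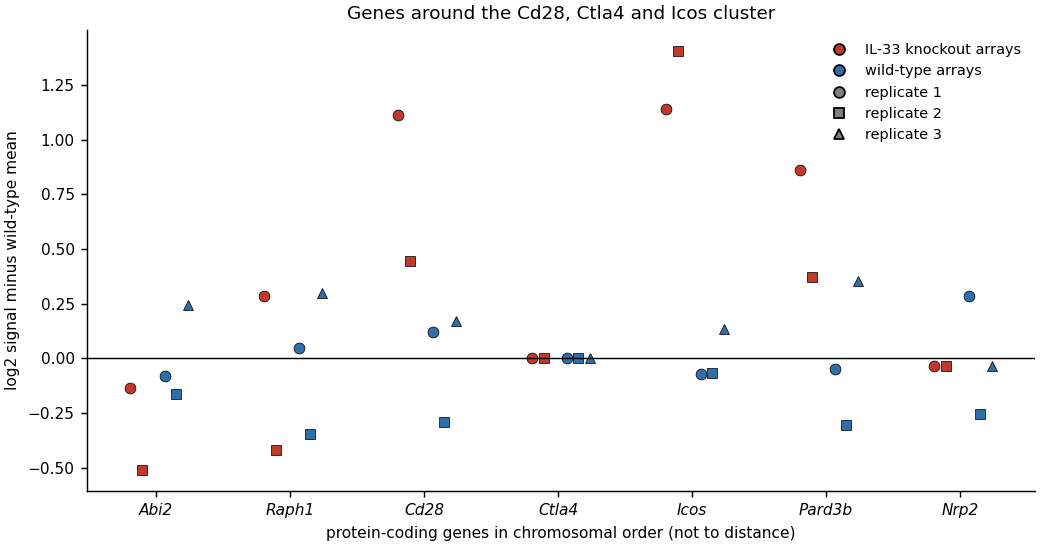
Log2 signal minus the wild-type mean (vertical axis) for 7 protein-coding genes in chromosomal order (horizontal axis, not to distance), with IL-33 knockout arrays left of wild-type arrays for each gene. Icos stands 1.14 and 1.40 above the wild-type mean in the knockout arrays and Ctla4 is at 0 on every array.

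The genes with a profile nearest to that of Icos were found among 9972 tested genes with a mean above that of the median gene, 4.48, after segments of antigen receptors, odorant and vomeronasal receptors, small RNAs and predicted genes were set aside. Nearness was the root mean square difference over the 5 arrays, after each gene was centred on its own mean. Rxrg, a retinoid X receptor gene, was nearest at 0.08, with 5.65 and 5.66 in knockout arrays and 4.26, 4.26 and 4.46 in wild-type arrays. Its wild-type mean of 4.33 lay below the median gene, so it passed that limit through its knockout values. Xkr6, of the XK-related family, followed at 0.12, with 6.56 and 6.72 in knockout arrays and 5.40, 5.56 and 5.45 in wild-type arrays. Hey1, a transcriptional repressor gene downstream of Notch, was also at 0.12, and the noncoding RNA Snhg15 was at 0.13. Their differences of 1.32, 1.17, 1.21 and 1.21 follow from the way they were chosen. That of Xkr6 is of its brightest probe set, and with the mean of its probe sets it was 0.73.

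**Figure D3:**
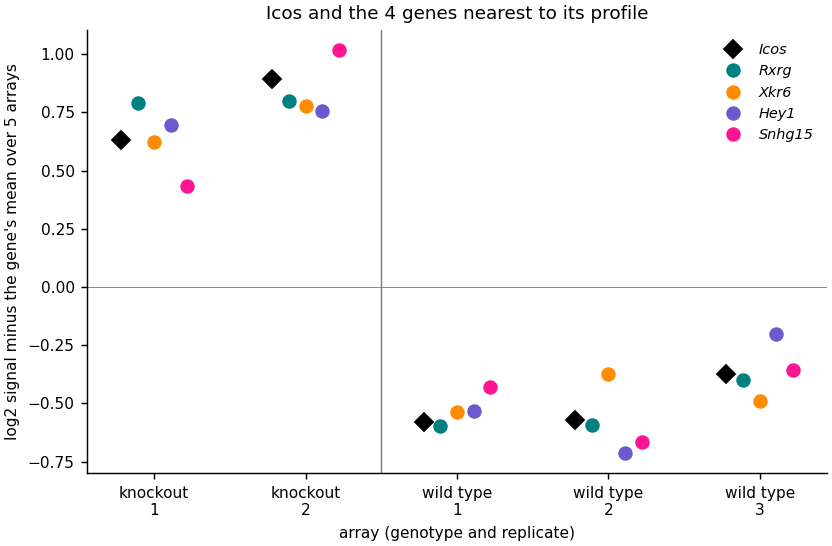
Log2 signal minus each gene's mean over the 5 arrays (vertical axis) for Icos and the 4 genes nearest to its profile, on knockout arrays 1 and 2 and wild-type arrays 1 to 3 (horizontal axis). All 5 genes lie above 0 on both knockout arrays and below 0 on the 3 wild-type arrays.

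Further genes of the pathway were followed in 5 lists of 75 genes, of which 71 were measured and 63 tested. None passed the adjusted limma test, whose p over these genes ran from 0.546 to 1. Groups did not overlap for 5 higher and 5 lower genes, 15.9% of those tested, against 18% over all genes. These counts were 4 higher and 18 lower after median centring, and 7 higher and 13 lower after quantile normalization. List genes with tied values can enter the rescaled counts in the way described for Ctla4. The median difference was -0.02 over the lists and 0.04 over all genes tested.

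Among ligands and B7 relatives, 8 of 9 genes were tested, 0 passed in either direction, and the median difference was 0.10. Cd80 and Cd86 encode the shared ligands of CD28 and CTLA-4. Cd86 read 3.75 and 4.05 in knockout arrays and 3.75 in all 3 wild-type arrays, a difference of 0.15 that was 0 without knockout replicate 2. Cd80 was among the dimmest 25% and not tested. The PD-1 ligand genes overlapped, with Cd274 at 5.58 and 5.82 in knockout arrays and 5.20 to 6.14 in wild-type arrays, and Pdcd1lg2 at 4.58 and 4.64 in knockout arrays and 4.56 to 5.04 in wild-type arrays. The difference of Cd274 was -0.0090, and -0.13 without knockout replicate 2. Btnl2, a butyrophilin-like gene related to the B7 family, was the 1 list member without overlap, at 4.60 and 4.87 in knockout arrays and 4.08 to 4.51 in wild-type arrays. Its difference was 0.45 (SE 0.17) with a limma adjusted p of 0.623. Cd276 and Vtcn1, of the B7 family, differed by 0.12 each and overlapped. Without knockout replicate 2 they differed by 0.24 and 0.18.

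Signalling genes below the receptors had a median difference of -0.09, with 6 of 20 tested above 0 and 14 below, and 0 passed in either direction. Pik3r1 encodes the regulatory subunit of the phosphoinositide 3-kinase that CD28 and ICOS recruit. It read 8.48 and 8.57 in knockout arrays and 8.80, 9.00 and 8.77 in wild-type arrays, so the groups did not overlap. The difference was -0.34 (SE 0.09), with a limma adjusted p of 0.546. Ptpn6 encodes SHP-1, a phosphatase used by inhibitory receptors, and read 5.33 and 6.36 in knockout arrays and 6.54 to 6.88 in wild-type arrays. Its difference of -0.86 had a standard error of 0.36 and a limma adjusted p of 0.623, and it was -1.37 without knockout replicate 2. Inpp5d, which encodes the lipid phosphatase SHIP-1, read 7.24 on knockout replicate 2, while replicate 1, at 8.55, lay within the wild-type range of 8.51 to 8.82. Its difference was -0.74, and -0.086 without knockout replicate 2. Lcp2, the gene of the adaptor SLP-76, differed by -0.22 with overlap, and by -0.063 without that array.

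Genes that control the mRNA or protein of family members or their ligands had a median difference of -0.22. Of 10 tested, 3 were above 0 and 7 below, and 0 passed in either direction. Rc3h1 encodes Roquin-1, which in mice destabilises Icos mRNA. It read 7.97 and 7.56 in knockout arrays, against 8.05, 8.05 and 8.57 in wild-type arrays, a difference of -0.46 (SE 0.24) without overlap. Without knockout replicate 2 the difference was -0.25, and without wild-type replicate 3 it was -0.28. Lrba, needed to keep CTLA-4 from degradation, read 6.59 and 6.54 in knockout arrays and 6.85 to 7.41 in wild-type arrays. Cmtm6 encodes a protein that stabilises the PD-1 ligand PD-L1 and had the lowest unadjusted p of the list, with a difference of -0.62 (SE 0.21). It read 7.38 and 6.99 in knockout arrays and 7.61 to 8.08 in wild-type arrays. The limma adjusted p was 0.623 for Rc3h1, Lrba and Cmtm6 alike. Ap2m1, a clathrin adaptor gene that binds CTLA-4, was named after its values were seen: it was the 1 gene of this list higher without overlap, by 0.20. Zc3h12a encodes Regnase-1, which also degrades Icos mRNA in mice. It went opposite ways in the knockout arrays, at 7.65 and 5.97, and read 6.92 on all 3 wild-type arrays. Its difference was -0.11, or 0.72 without knockout replicate 2 and -0.95 without knockout replicate 1. Adam10, a protease of cell surface proteins, differed by -0.20 with overlap, and by -0.046 without knockout replicate 2.

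Among genes known to be induced by costimulation in lymphocytes, 15 of 17 measured were tested, 7 above and 8 below 0, with 0 passing in either direction and a median of -0.02. Il4, the gene of a type 2 cytokine, read 6.57 and 7.36 in knockout arrays, against 6.12, 6.15 and 6.24 in wild-type arrays. Its difference was 0.79 (SE 0.27), with a limma adjusted p of 0.615. Il2, a T cell growth factor gene, read 6.22 and 7.23 in knockout arrays and 5.86 to 6.05 in wild-type arrays, a difference of 0.78 (SE 0.34). Both genes were higher on the second knockout array, the one with the high Xist signal, than on the first. Without that array the differences were 0.40 for Il4 and 0.27 for Il2. The glucose transporter gene Slc2a1 was 0.28 higher at its brighter probe set, without overlap, and 0.02 higher at its dimmer one. The survival gene Bcl2 differed by -0.34 at its brighter probe set, with overlap, or -0.11 without knockout replicate 2 and -0.58 without knockout replicate 1. Il5 and Il13, the type 2 cytokine genes typical of ILC2s, differed by -0.84 and -0.24, also with overlap. Without knockout replicate 2 the differences were -1.42 for Il5 and -0.47 for Il13.

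Of the other surface receptors listed, 10 of 15 were tested, 9 above and 1 below 0. Their median difference was 0.17, with 0 passing in either direction. None of the 10 was without overlap. Cd96 and Cd226, receptors that share ligands of the nectin family, read 9.34 and 9.21 in knockout arrays and 9.03 to 9.22 in wild-type arrays for Cd96, with a difference of 0.13, and Cd226 differed by 0.21. Cd244a, a SLAM family receptor gene, and Pilra, a paired inhibitory receptor gene, read 4.85 and 4.92 on knockout replicate 2, above all other arrays, with differences of 0.36 and 0.45. Without that array the differences were 0 for Cd244a and 0.068 for Pilra. The limma adjusted p was 0.623 for each of these 4 genes.

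**Figure D4:**
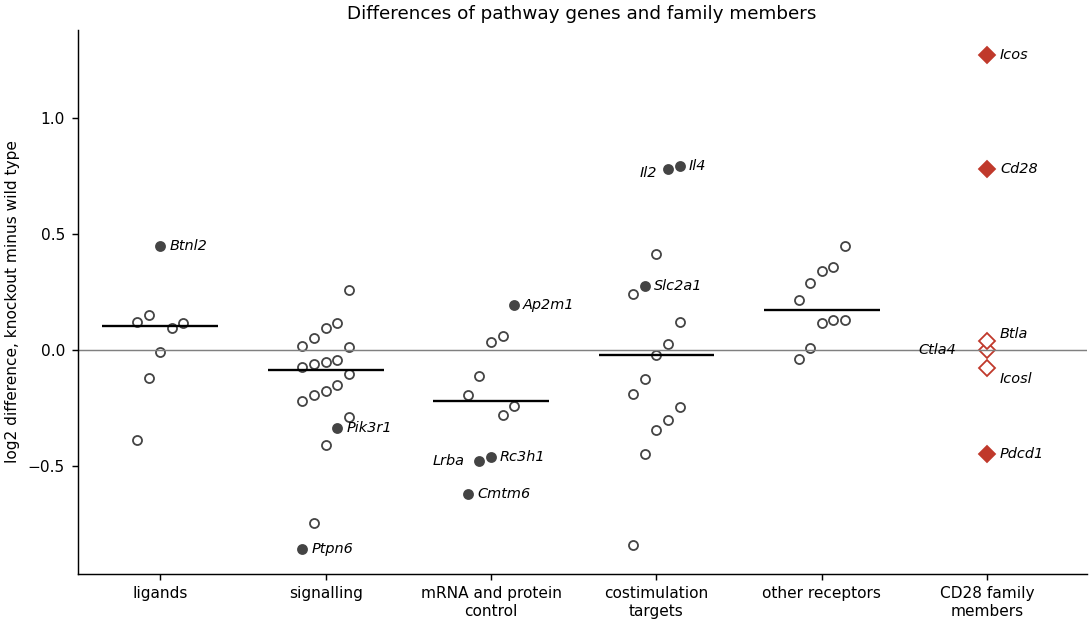
Log2 difference, knockout minus wild type (vertical axis), of each tested gene in the 5 pathway lists and of the 6 family members (horizontal axis); filled symbols mark groups without overlap and bars the list medians. Icos at 1.27 lies above every pathway gene shown, of which Il4 at 0.79 is the highest.

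Marker lists of other cell types were compared on the same arrays. ICOS and CD28 are also receptors on T cells, and ICOSL is also made by endothelial and antigen-presenting cells. The mean level of the 9 T cell markers was 5.44 to 5.50 in knockout arrays and 5.50 to 5.56 in wild-type arrays. Of these 9 genes, 5 differed upward and 4 downward, with Cd8a higher and Cd3e and Bcl11b lower without overlap. Cd8a read 4.12 and 4.16 in knockout arrays, against 3.41 to 4.05 in wild-type arrays. Of the 4 regulatory T cell markers, Foxp3 read 4.16 and 4.36 in knockout arrays and 3.46 to 3.75 in wild-type arrays. Foxp3 lay below the median probe set on 4 of the 5 arrays. Tnfrsf18 differed by 0.08 without overlap, whereas Lrrc32 differed by 0.10 and Ikzf2 by -0.35, both with overlap. The mean of these 4 markers was 5.66 to 6.18 in knockout arrays and 5.71 to 5.90 in wild-type arrays. The mean of the 13 ILC2 markers was lower on both knockout arrays, at 8.55 to 8.62 against 8.75 to 8.90 in wild-type arrays. Of these 13 genes, 11 differed downward, 3 of them, Il17rb, Nmur1 and Ptprc, without overlap. The other 2, Rora and Il7r, differed upward, both without overlap. The mean of 10 lung epithelial markers was 5.02 to 5.23 in knockout arrays and 4.54 to 4.74 in wild-type arrays. Scgb1a1, a club cell gene, had the largest difference, 2.83, at 8.81 and 5.93 in knockout arrays and 3.62 to 5.01 in wild-type arrays. Sftpc, Epcam and Sftpa1 were also higher without overlap, by 0.94, 0.75 and 0.36. Of the 9 epithelial markers tested, 7 differed upward and 2, Cdh1 and Krt18, downward, with a median difference of 0.15. The mean of 8 endothelial markers was 5.01 to 5.30 in knockout arrays and 4.82 to 4.89 in wild-type arrays. Cdh5 and Cldn5 carried this gap, with differences of 1.44 and 1.59, whereas Kdr, Tek, Emcn and Eng differed downward, Kdr without overlap. Means of 13 macrophage and dendritic cell markers overlapped, at 4.28 to 4.38 in knockout arrays and 4.10 to 4.46 in wild-type arrays, as did those of 7 NK cell and ILC1 markers, at 4.36 to 4.56 in knockout arrays and 4.25 to 4.43 in wild-type arrays. For 6 B cell markers the means were 3.88 to 4.12 in knockout arrays and 3.74 to 3.93 in wild-type arrays, again with overlap. The part of the epithelial, endothelial, T cell, regulatory T cell and ILC2 marker levels in the differences of Icos, Cd28 and Pdcd1 was not tested.

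**Figure D5:**
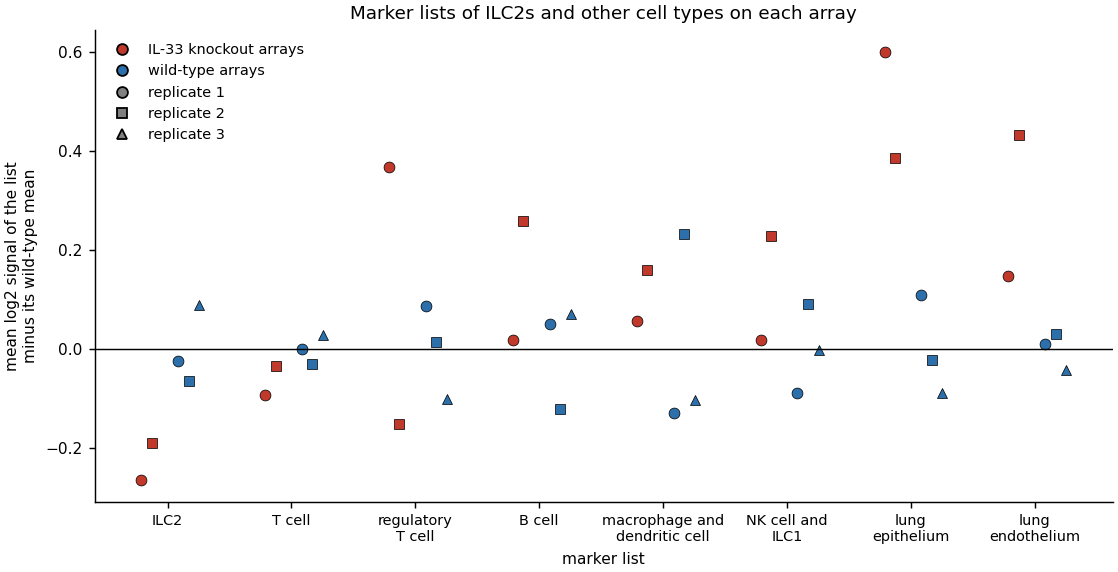
Mean log2 signal of each marker list minus its wild-type mean (vertical axis) for 8 lists (horizontal axis), with IL-33 knockout arrays left of wild-type arrays. The epithelial and endothelial lists lie higher and the ILC2 list lower on both knockout arrays, and the T cell list is not higher on either.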

How the data were processed

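The authors deposited log2 signals per probe set; per the submitters' processing notes the tools were RMA and Affymetrix Expression Console, with no versions or settings named. RMA usually equalises arrays, which hides any change common to all transcripts. Of 41345 probe sets, 23521 were paired with 1 symbol, 1814 with several and 16010 with none in the platform annotation. Each gene was represented by its brightest probe set, and the dimmest 25% were left out, leaving 16635 genes for limma 3.58.1 under R 4.3.3 (lmFit and eBayes, two-sided, Benjamini-Hochberg, threshold 0.05, tested on simulated arrays). The number of arrays limits precision. The labels call the arrays biological replicates but do not name the animals, so p-values measure the spread between these arrays. The members and lists were chosen with earlier results of these data known, and members carry no test. The naming rule took the members, Il33, Xist, markers, up to 4 genes of the smallest p per pathway list and the 4 genes nearest to Icos; Cd80, Cd274, Pdcd1lg2, Zc3h12a, Il5, Il13, Ap2m1 and the chromosomal neighbours were named after their values were seen. Alternatives changed the filter, probe-set choice, scaling, variance model, array weights, replicate block, threshold and arrays included. List genes with no probe set of their own symbol are not analysed here.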

Additional observations from a re-analysis of the deposited data

How the results depend on the processing

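Differences are log2, knockout minus wild type. Over 11 alternatives the difference of Icos ran from 1.14 to 1.40 and that of Cd28 from 0.45 to 1.11, and that of Pdcd1 from -0.66 to -0.23, its ends reached without knockout replicate 1 and without knockout replicate 2. That of Icosl ran from -0.26 to 0.11, with a sign that was not fixed. Ctla4 differed by -0.058 after median centring and -0.027 after quantile normalization, and Btla by -0.019 after median centring. With limma, 0 genes passed at an adjusted p of 0.1 as well, and leaving out 1 array gave 0 to 1077 genes: 1077 without knockout replicate 1, 401 without knockout replicate 2 and 0 without any wild-type array. Fits with 1 knockout array take its spread from the wild-type arrays. For Cd86, Cd244a and Zc3h12a that spread was 0, with equal values on all wild-type arrays. A pass of these genes in such fits therefore rests on no measured spread of their own. Without knockout replicate 1, 1 ligand gene, 1 mRNA and protein control gene, 2 target genes and 1 other receptor gene passed; without knockout replicate 2, 1 mRNA and protein control gene passed. Leaving out an array gave 0 to 1 called genes for the ligand, mRNA and protein control and other receptor lists, 0 to 2 for the target list and 0 for the signalling list. The count of 2988 genes without overlap became 5477 after median centring and 4927 after quantile normalization, and 4004 to 8996 when 1 array was left out. Of 24 genes named by the rule (20 of the pathway and 4 near Icos), 0 changed sign, Cd86 and Cd244a fell to a difference of 0 without knockout replicate 2, and 6 passed without knockout replicate 1. Of 10 genes named after their values were seen, 5 changed sign. Cd274 was at 0.0018 with array weights, 0.028 after quantile normalization and 0.028 with the replicate block, and ran from -0.26 to 0.21 when 1 array was left out. Raph1 was at 0.082 with the replicate block. Leaving out 1 array gave -0.20 to 0.037 for Pdcd1lg2, -0.42 to 0.28 for Raph1, -0.16 to 0.11 for Nrp2 and -0.95 to 0.72 for Zc3h12a, which passed lower without knockout replicate 1 and higher without knockout replicate 2. The replicate numbers name separate biological replicates, and the labels do not say whether same-numbered arrays belong together. Deviations of same-numbered arrays correlated at -0.05 and 0.14. The deviations of the 2 knockout arrays mirror each other, so these values cannot decide on a pairing. With the replicate number as a block, 0 genes passed and the differences were 1.34 for Icos, 0.86 for Cd28 and -0.48 for Pdcd1.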
